A study of Mus musculus with 9 samples.

Results

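The subject is the mitochondrial respiratory chain with ATP synthase, taken as every gene row of the deposited expression table whose name begins with Nduf, Uqcr, Cox4, Cox5, Cox6, Cox7, Cox8 or Atp5, together with the protein genes of the mitochondrial chromosome named mt-Nd, mt-Co, mt-Cytb and mt-Atp. That rule gave 116 of 26146 rows. Of these, 87 are nuclear subunits, isoforms or complex I assembly factors, 13 are the mitochondrially encoded proteins, and 16 are pseudogene or retrocopy rows. Poly(A) RNA was sequenced from RAW264.7, a mouse macrophage line, in 9 libraries that form 3 groups of 3. By the sample titles, the M columns of the table hold cells treated with LPS (lipopolysaccharide, from the outer wall of bacteria) plus a Traditional Chinese Medicine extract, the ET columns hold cells treated with LPS without it, and the Normal columns hold untreated cells. The library names in the same labels assign M and ET the other way round, so which of the pair carried the extract is uncertain and both are called by their columns. No dose, exposure time or plant is stated in the labels used here, and nothing says that the 3 libraries of a group came from separate cultures, so p-values measure the spread between libraries, which may be technical.

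The chain passes electrons from NADH through complex I, or from succinate through complex II, to ubiquinone, then through complex III and cytochrome c to complex IV, which reduces oxygen. Complexes I, III and IV pump protons across the inner membrane, and ATP synthase uses their return to make ATP. Complexes I, III, IV and ATP synthase are built from the products of both genomes, while complex II is wholly nuclear. Macrophages activated by LPS are known for a shift towards glycolysis and for using mitochondria as a source of succinate, itaconate and reactive oxygen species.

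Many nuclear members are controlled in other settings by the factors NRF1, GABPA (an ETS factor) and YY1, whose short binding letters were looked for in the RefSeq promoter windows of GRCm38.p6, from 250 bases before to 50 bases after the start site. Of the 87 nuclear members, 71 had a window. The NRF1 letters GCGCANGCG, on either strand, stood in 20 of the 71 (28.2%), against 7.03% of the 27025 genes with a window and 16.9% of the 8267 of those that were tested here. The ETS letters CCGGAAGT stood in 5 (7.04%, against 4.31% and 10.5%), and the YY1 letters AAGATGGCG in 8 (11.3%, against 1.64% and 4.16%). No member window had matches to different motifs that overlapped. The stretches below belong to members whose transcripts were among the clearest to fall, each with its match in capitals and read 5′ to 3′ on the gene's strand. Other members with NRF1 letters did not fall, and their stretches are not shown. Ndufa8 had log2 changes of 0.07 in M and 0.18 in ET, and Atp5l 0.03 and 0.10. The letters of Atp5g2 lie inside a 5′ exon of a longer annotated isoform, and the window of Uqcr11 also held NRF1 letters outside the stretch shown. A match describes letters only.
Atp5g2 (chr15:102671070-102671099, minus strand, NRF1 letters): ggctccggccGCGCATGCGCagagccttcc
Cox6a1 (chr5:115349057-115349130, minus strand, NRF1 letters at 2 places): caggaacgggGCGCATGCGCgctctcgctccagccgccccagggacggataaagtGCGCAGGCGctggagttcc
Ndufaf4 (chr4:24897960-24897989, plus strand, NRF1 letters): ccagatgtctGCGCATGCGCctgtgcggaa
Uqcr11 (chr10:80406870-80406897, minus strand, ETS letters): tctctcctccCCGGAAGTagatgtcaat

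The libraries held 55039858 to 76242718 counts. Macrophage markers summed to 2384 to 2437 FPKM in M, 2455 to 2633 in ET and 1985 to 2103 in Normal. Single markers went both ways, with Cd14 averaging 1009 FPKM in M and 958.9 in ET, against 200.8 in Normal, and Lyz2 550.4 and 669.4, against 995.0. The 13 listed markers of other cell types that the table held summed to 5.22 to 5.41 FPKM in M, 5.27 to 5.39 in ET and 0.877 to 1.27 in Normal, with Pecam1, which some myeloid cells also make, the largest of them. Their part in the results was not tested. ET replicate 3 stood apart from its group, with a chi-square per gene of 26.3 and 21.6 against ET replicates 1 and 2, which gave 14.6 against each other.

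The filter on low values (FPKM of at least 1 in at least 3 libraries) let 102 of the 116 rows be tested among 11536 genes. All 13 mitochondrially encoded genes and 82 of the 87 nuclear members passed, each with FPKM of at least 1 in all 9 libraries. The nuclear members that did not pass were Cox4i2, Cox6a2, Cox6b2, Cox7a1 and Ndufa4l2, isoforms best known from lung, muscle, heart, testis or hypoxic cells. Of the pseudogene and retrocopy rows, 7 were tested and none differed between groups in any comparison by edgeR, by DESeq2 or at an unadjusted p under 0.05. By edgeR, 35.5% of all tested genes were higher and 34.5% lower in M than in Normal, and 35.0% and 35.2% in ET. In M against ET these shares were 4.97% and 4.12%. The 16 rows together held on average 0.0044% of counts in M, 0.0044% in ET and 0.0046% in Normal, so rows this few and low decide little. Two-sided quasi-likelihood tests from edgeR with Benjamini-Hochberg adjustment over all 11536 genes were used throughout, and a gene is said to rise or fall only with an adjusted p under 0.05. Levels are CPM, each library's counts scaled to a common total with TMM factors, and differences are log2 ratios with their standard error.

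Transcripts of both genomes took a smaller share of the RNA in the M and ET libraries than in Normal. The 13 mitochondrially encoded genes made up 3.71%, 3.40% and 3.49% of all counts in M libraries 1 to 3 and 3.55%, 3.24% and 3.54% in ET, against 4.53%, 4.46% and 4.31% in Normal. The 87 nuclear members made up 0.789%, 0.798% and 0.799% in M and 0.848%, 0.813% and 0.801% in ET, against 0.991%, 0.956% and 0.971% in Normal. For both sets every M and every ET library lay under every Normal library, while M and ET overlapped for the mitochondrial set only. A share also depends on what the other genes take of the library. Scaled by total counts only, the median log2 change of all tested genes was -0.10 in M and -0.10 in ET. In such bulk RNA, fewer transcripts per cell, fewer cells with the transcript and more RNA from other genes cannot be told apart.

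**Figure D1:**
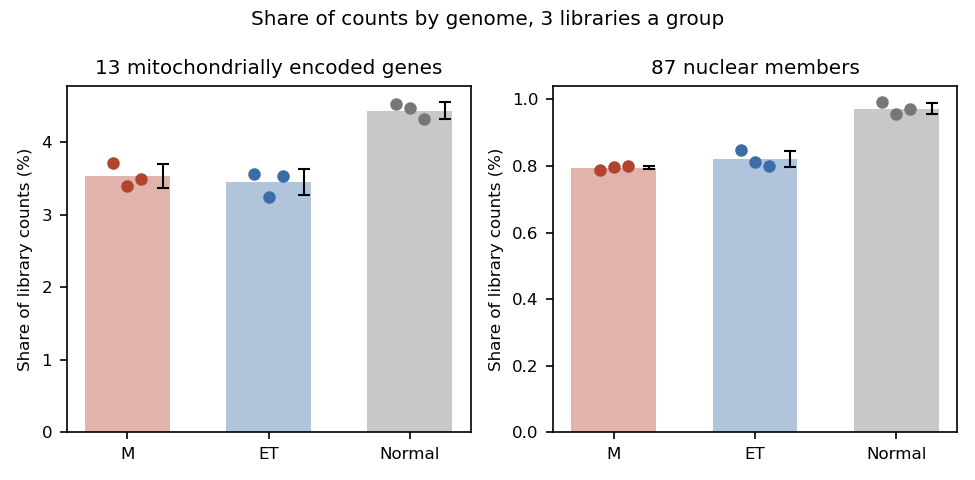
Share of all library counts (%) taken by the 13 mitochondrially encoded genes (left) and the 87 nuclear members (right), with one point a library, bars at the group mean and error bars of 1 SD (n = 3). Both treated groups lie under Normal, at 3.24 to 3.71% against 4.31 to 4.53% on the left and 0.789 to 0.848% against 0.956 to 0.991% on the right.

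Counts of the 13 mitochondrial genes were 4.25 to 4.70 times those of the nuclear members in M and 3.98 to 4.42 times in ET, against 4.44 to 4.67 times in Normal, so M overlapped both other groups, while every ET library lay under every Normal library. By complex, the mean share in M was 0.747 of the Normal mean for mitochondrial complex I genes, 0.616 for mt-Cytb, 0.851 for the mitochondrial complex IV genes and 0.880 for mt-Atp6 with mt-Atp8. In ET the same ratios were 0.708, 0.618, 0.818 and 1.01. The nuclear genes of complexes I, III and IV and ATP synthase were closer together, at 0.795, 0.811, 0.822 and 0.824 of Normal in M and at 0.824, 0.837, 0.868 and 0.844 in ET.

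Of the 82 tested nuclear members, 45 fell and 7 rose in M against Normal. That is 54.9% lower and 8.54% higher, beside 34.5% lower and 35.5% higher among all tested genes, and their median change was -0.21 (all tested genes -0.01). In ET against Normal 36 fell and 8 rose, which is 43.9% and 9.76% beside 35.2% lower and 35.0% higher among all tested genes, with a median of -0.13 (all tested genes -0.02). Both comparisons use the same Normal libraries. Scaling by total counts instead of TMM left only 3 of the rises in M and moved the median of the nuclear members to -0.31, while the median of all tested genes moved by -0.09.

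**Figure D2:**
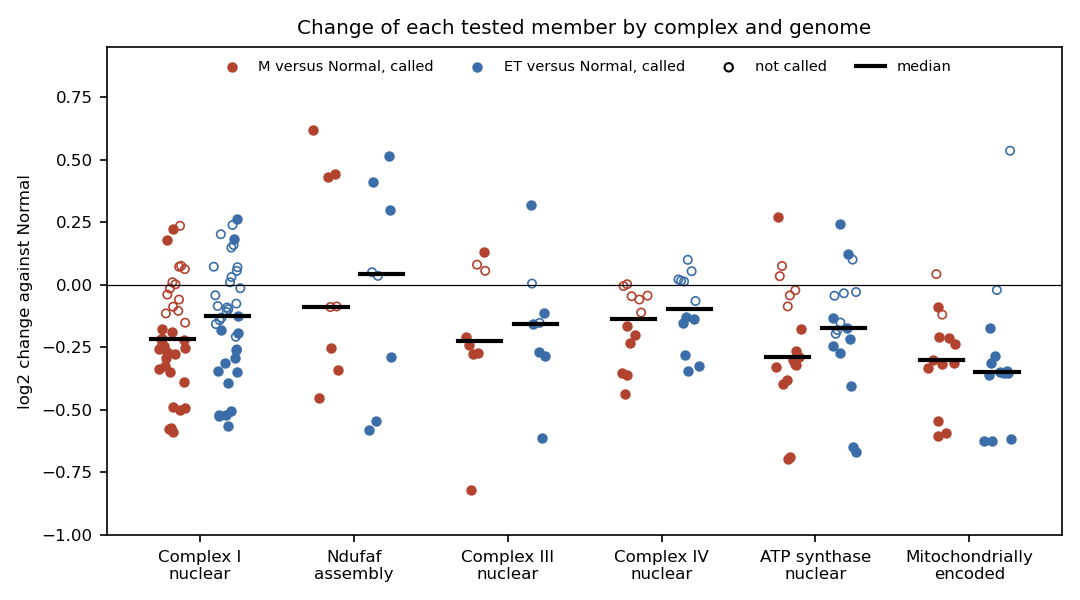
log2 change against Normal of each tested member, for M (left of each pair) and ET (right). Filled points passed an adjusted p of 0.05, open points did not, and bars mark the medians. Of the 6 classes drawn, in which the 13 mitochondrially encoded genes form 1 class, falls outnumber rises in all but the Ndufaf assembly factors, where 3 rose and 3 fell in each comparison.

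Complex I takes electrons from NADH through flavin and iron-sulfur centres, which its nuclear core subunits carry. Of the 7 nuclear core subunits 6 fell in M and 5 in ET, and none rose by edgeR, by DESeq2 or at an unadjusted p under 0.05. That is 85.7% and 71.4% lower by edgeR. Of all tested genes 34.5% fell and 35.5% rose in M, and 35.2% and 35.0% in ET. Ndufs1, which binds iron-sulfur clusters of the entry arm, had 131.9, 128.0 and 134.5 CPM in M and 125.6, 130.2 and 133.3 CPM in ET, against 186.2, 184.3 and 182.1 CPM in Normal. All 6 treated libraries were below all 3 Normal libraries, with changes of -0.49 ± 0.04 in M (SE, edgeR adjusted p = 1e-07) and -0.51 ± 0.04 in ET (edgeR adjusted p = 6.91e-08). Ndufs7, which holds the last iron-sulfur cluster before ubiquinone, averaged 50.3 ± 0.9 CPM in M and 56.2 ± 2.8 CPM in ET, against 71.3 ± 1.8 CPM in Normal (SD, n = 3 each), changes of -0.50 and -0.34 (edgeR adjusted p = 1.25e-06 and 3.99e-05). Ndufs3, another core subunit, named after its values were seen, did not pass, at 50.5 CPM in M, 49.98 CPM in ET and 50.5 CPM in Normal.

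The 30 accessory subunits, which hold the core together, were more mixed. In M 14 fell and 2 rose, with a median of -0.18, and in ET 9 fell and 2 rose, with a median of -0.10. The falls were 46.7% of the list in M and 30% in ET, beside 34.5% and 35.2% of all tested genes, so in ET they were no more frequent than the background, and the rises were 6.67% in each, beside 35.5% and 35.0%. Ndufa10, a subunit of the membrane arm, had 109.7, 116.2 and 103.4 CPM in M and 115.4, 105.7 and 101.7 CPM in ET, against 161.7, 146.5 and 155.1 CPM in Normal. No library of M or ET reached the Normal range, and the changes were -0.49 ± 0.06 and -0.52 ± 0.06 (edgeR adjusted p = 6.79e-06 and 3.98e-06). Falls of over 0.5 on the log2 scale in both comparisons were also seen for Ndufa6, Ndufb3 and Ndufb11, named after their values were seen.

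A few accessory subunits rose. Ndufa13, also known as GRIM-19 and as a binding partner of STAT3, was at 24.8, 27.1 and 27.2 CPM in M and 28.7, 27.1 and 28.0 CPM in ET, against 23.2, 21.6 and 25.2 CPM in Normal. ET lay above Normal in every library, while M overlapped it. The change was 0.26 ± 0.07 in ET (edgeR adjusted p = 0.00598) and 0.18 ± 0.07 in M (edgeR adjusted p = 0.0454), and the call in M was lost with total-count scaling (edgeR adjusted p = 0.316) and without any one of M replicates 2 and 3, ET replicates 1 and 2 or Normal replicates 1 and 2 (edgeR adjusted p = 0.0525 to 0.169). It was also lost with limma on log2(FPKM + 1) and log2(FPKM + 0.1) (limma adjusted p = 0.202 and 0.204). With no filter, with filterByExpr, in a fit of the 6 libraries compared and with a replicate block it was lost too (edgeR adjusted p = 0.0514 to 0.121). Ndufs4, whose loss in mice gives a Leigh-like brain disease, rose by 0.22 ± 0.07 in M (edgeR adjusted p = 0.0116), a call lost with total-count scaling (edgeR adjusted p = 0.11) and without Normal replicate 2 (edgeR adjusted p = 0.0556). With limma on log2(FPKM + 1) and log2(FPKM + 0.1) the call of Ndufs4 in M was lost as well (limma adjusted p = 0.068 and 0.0688). Its value of 0.16 in ET did not pass (edgeR adjusted p = 0.0544), although it passed without ET replicate 3 or Normal replicate 1. On all 9 libraries it passed with DESeq2 (DESeq2 adjusted p = 0.033) and with relative log expression factors (edgeR adjusted p = 0.0393), so its calls depend on the method. Ndufa8 rose in ET, by 0.18 ± 0.04 (edgeR adjusted p = 0.0023), and had 0.07 in M (edgeR adjusted p = 0.162).

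The 8 assembly factors named Ndufaf, which are not part of the finished complex, had 3 members higher and 3 lower in each comparison, which is 37.5% each way and near the share of all tested genes (35.5% higher and 34.5% lower in M, 35.0% and 35.2% in ET). Ndufaf1, a chaperone of the membrane arm, had 29.6, 30.3 and 29.3 CPM in M and 30.7, 32.1 and 31.6 CPM in ET, against 22.8, 21.0 and 22.4 CPM in Normal. It rose by 0.43 ± 0.06 in M (edgeR adjusted p = 3.21e-05) and by 0.51 ± 0.06 in ET (edgeR adjusted p = 6.71e-06). Ndufaf2, a factor for the NADH-side module that is a paralogue of Ndufa12, had 11.0, 11.1 and 12.03 CPM in M and 9.97, 9.62 and 9.87 CPM in ET, against 6.88, 7.42 and 7.89 CPM in Normal. It rose by 0.62 ± 0.10 in M and by 0.41 ± 0.10 in ET, with M, ET and Normal not overlapping.

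Ndufaf4, whose promoter stretch with NRF1 letters is printed above, went the other way. It had 51.3, 42.6 and 44.0 CPM in M and 38.9, 36.8 and 41.0 CPM in ET, against 58.4, 59.2 and 56.9 CPM in Normal, and fell by 0.34 ± 0.07 in M and by 0.58 ± 0.07 in ET (edgeR adjusted p = 0.000933 and 1.07e-05). Ndufaf8 averaged 5.40 ± 1.06 CPM in M and 5.06 ± 0.23 CPM in ET, against 7.39 ± 0.77 CPM in Normal (SD, n = 3 each). Its fall in M (edgeR adjusted p = 0.0183) was lost without M replicate 1, M replicate 3 or Normal replicate 3 (edgeR adjusted p = 0.0678 to 0.076). Of 9 other complex I assembly factors outside the name rule, 1 rose and 4 fell in each comparison (11.1% and 44.4%). Of all tested genes 35.5% rose and 34.5% fell in M, and 35.0% and 35.2% in ET.

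**Figure D3:**
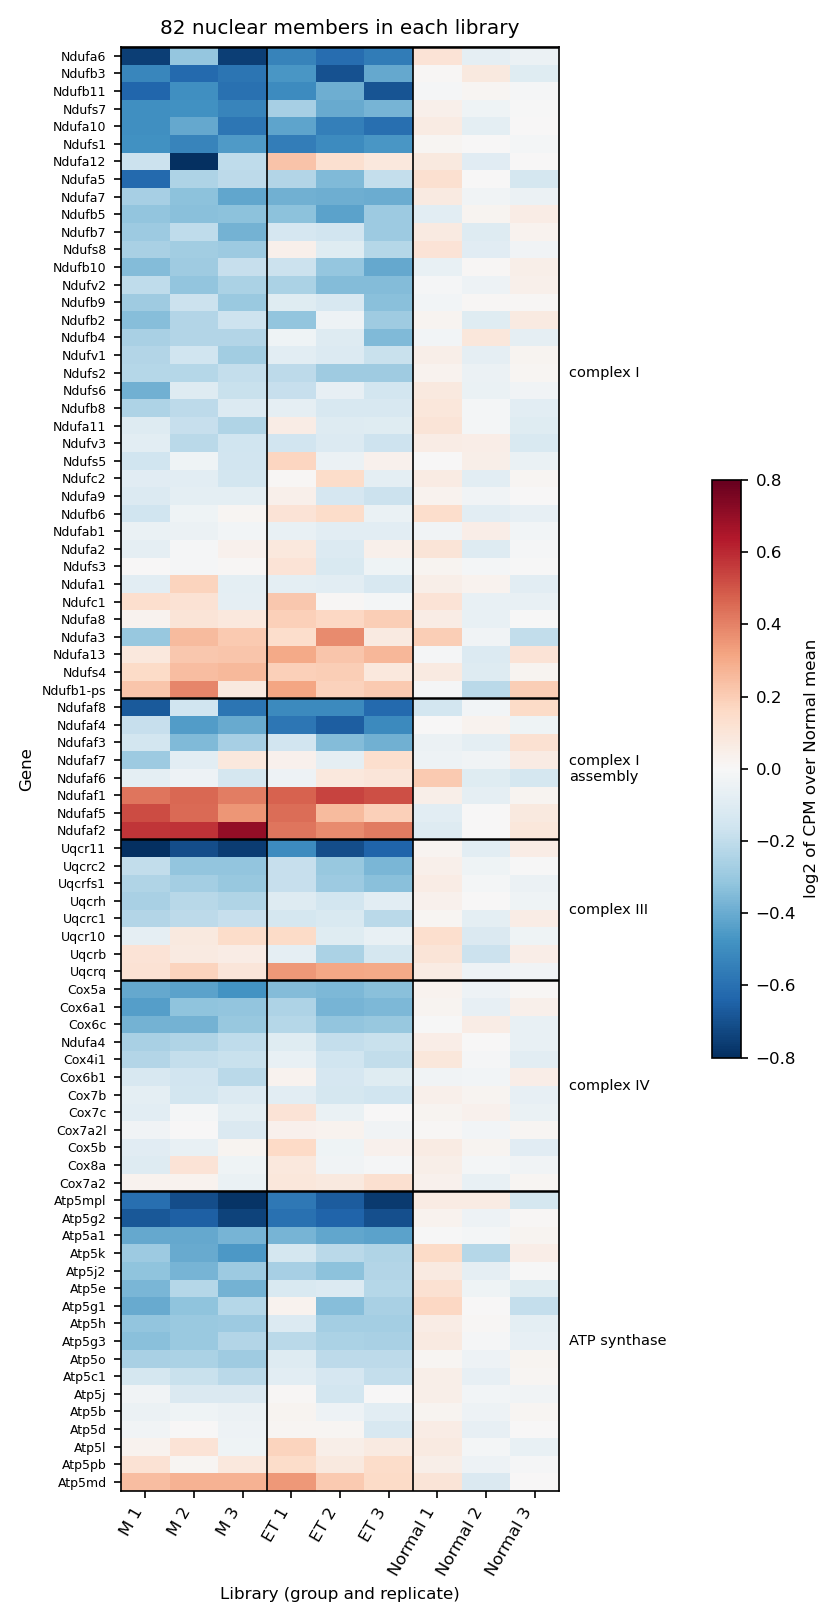
log2 of each library's CPM over the Normal mean for the 82 tested nuclear members (rows, grouped by complex and sorted by the change in M) in the 9 libraries (columns). The darkest blue rows, such as Uqcr11, Atp5g2 and Atp5mpl, are low in all 6 M and ET libraries, and Ndufaf1 and Ndufaf2 are high in all 6.

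In complex III, which passes electrons from ubiquinol to cytochrome c, 5 of 8 nuclear subunits fell and 1 rose in each comparison (62.5% and 12.5%). Of all tested genes 34.5% fell and 35.5% rose in M, and 35.2% and 35.0% in ET. Uqcr11, the smallest subunit of complex III, had 17.2, 21.1 and 20.4 CPM in M and 24.4, 21.1 and 22.2 CPM in ET, against 35.1, 32.6 and 36.0 CPM in Normal. Its fall by 0.82 ± 0.09 in M was the largest among the tested nuclear members, and in ET it fell by 0.61 ± 0.09 (edgeR adjusted p = 3.1e-06 and 4.1e-05). Uqcrfs1, the Rieske iron-sulfur protein, averaged 115.0 ± 2.4 CPM in M and 115.3 ± 6.2 CPM in ET, against 139.0 ± 5.1 CPM in Normal, changes of -0.27 in both (edgeR adjusted p = 0.000151 and 0.000169).

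Uqcrq, a subunit that contacts cytochrome b, rose while most of its complex fell. It had 51.8, 54.0 and 51.1 CPM in M and 60.8, 59.1 and 59.0 CPM in ET, against 50.1, 46.4 and 46.8 CPM in Normal. The rise in ET was 0.32 ± 0.05 (edgeR adjusted p = 8.74e-05). In M it was 0.13 ± 0.05 (edgeR adjusted p = 0.0347) and was lost with total-count scaling (0.04, edgeR adjusted p = 0.52) and without M replicate 1 or 2 or Normal replicate 2 or 3 (edgeR adjusted p = 0.056 to 0.112). It was also lost with limma on log2(FPKM + 1) and log2(FPKM + 0.1) (limma adjusted p = 0.35 and 0.347). With no filter, with filterByExpr and in a fit of the 6 libraries compared it was lost too (edgeR adjusted p = 0.0522 to 0.102).

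In complex IV, cytochrome c oxidase, 6 of the 11 common nuclear subunits fell (54.5%) and none rose in each comparison by edgeR. Of all tested genes 34.5% fell and 35.5% rose in M, and 35.2% and 35.0% in ET. Cox7a2 in ET was higher by DESeq2, and it was the 1 higher subunit with an unadjusted p under 0.05. Cox5a had 144.9, 142.9 and 138.0 CPM in M and 151.5, 150.0 and 152.8 CPM in ET, against 196.5, 187.1 and 193.4 CPM in Normal. It fell by 0.44 ± 0.04 in M and by 0.34 ± 0.04 in ET (edgeR adjusted p = 2.05e-07 and 2.04e-06). Its partner in name, Cox5b, chosen after its values were seen, had 61.8 CPM in M, 66.2 CPM in ET and 63.7 CPM in Normal and passed in neither. Cox6a1, whose promoter stretch is printed above, fell by 0.36 ± 0.05 and 0.33 ± 0.05, and Cox6c by 0.35 ± 0.05 and 0.28 ± 0.05 (largest edgeR adjusted p of these, 0.000136). Cox8a, at 125.3 CPM in M, 127.1 CPM in ET and 125.7 CPM in Normal, and Cox7a2, at 71.0, 75.9 and 70.9 CPM in the same order, did not pass.

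Cells can swap the common complex IV subunits for tissue or hypoxia isoforms, and the table shows the common ones throughout. Scaled by length, Cox4i1 was at 143.2 ± 3.3 FPKM in M, 150.6 ± 7.2 FPKM in ET and 174.7 ± 10.1 FPKM in Normal (SD, n = 3 each), whereas Cox4i2 was at 0.201, 0.110 and 0.140 FPKM. Cox4i1 fell by 0.20 ± 0.05 in M (edgeR adjusted p = 0.00262) and by 0.14 ± 0.05 in ET (edgeR adjusted p = 0.0225), and the call in ET was lost without ET replicate 2 or 3 or Normal replicate 1 or 2 (edgeR adjusted p = 0.0597 to 0.113). Cox6a2 stood at 0.677, 1.004 and 0.752 FPKM in M, ET and Normal and Cox7a1 at 0.129, 0.173 and 0.428 FPKM, against at least 68.6 FPKM for Cox6a1 and Cox7a2 in each group. Cox6b2 had counts in 1 M library only. These lengths follow the whole exon span of a gene in GENCODE M21, so they differ from the length of its main transcript.

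Ndufa4, now placed in complex IV, fell by 0.23 ± 0.04 in M and by 0.15 ± 0.04 in ET (edgeR adjusted p = 0.000453 and 0.00809). It is known to be replaced by other members of its family, Ndufa4l2 under hypoxia and AA467197 (human NMES1) in inflamed cells. Ndufa4l2 had 0 to 4 counts in M libraries, 5 to 12 in ET and 0 to 4 in Normal. AA467197, outside the name rule and too low to be tested, had 0.271, 0.443 and 0.397 CPM in M and 0.0485, 0.276 and 0 CPM in ET, against 0, 0 and 0.0676 CPM in Normal. Both stayed far under Ndufa4, which had 72.3 CPM in M, 76.4 CPM in ET and 85.0 CPM in Normal.

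In ATP synthase, 11 of 17 nuclear genes fell and 1 rose in M, and 8 fell and 2 rose in ET. That is 64.7% lower and 5.88% higher in M, beside 34.5% and 35.5% of all tested genes. In ET it is 47.1% and 11.8%, beside 35.2% and 35.0%. The rotating ring of subunit c is encoded by Atp5g1, Atp5g2 and Atp5g3, which give the same mature protein with different import signals. Atp5g2 had 90.9, 92.4 and 86.8 CPM in M and 96.0, 92.9 and 89.2 CPM in ET, against 148.1, 141.3 and 145.98 CPM in Normal. Its falls by 0.69 ± 0.04 and 0.65 ± 0.04 had the smallest adjusted p of all nuclear members (edgeR, 1.05e-08 in M and 1.97e-08 in ET).

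The other subunit c genes fell less. Atp5g3 averaged 174.4 ± 6.1 CPM in M and 179.8 ± 2.9 CPM in ET, against 212.9 ± 10.2 CPM in Normal, and fell by 0.29 ± 0.04 and 0.24 ± 0.04. Atp5g1, at 46.9, 49.8 and 53.2 CPM in M and 63.4, 49.2 and 51.97 CPM in ET, against 69.6, 62.3 and 54.6 CPM in Normal, fell in M only at the edge of its spread. Its edgeR adjusted p was 0.014 in M, and 0.0572 and 0.0719 without M replicate 1 and without Normal replicate 1. In ET it was 0.127, with the groups overlapping, and 0.0148 and 0.0384 without ET replicate 1 and without Normal replicate 3. The differences between the 3 genes were not tested.

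The catalytic head differed between its main partners. Atp5a1, the alpha subunit, had 1081, 1081 and 1108 CPM in M and 1106, 1076 and 1065 CPM in ET, against 1427, 1417 and 1456 CPM in Normal, and fell by 0.39 ± 0.03 and 0.41 ± 0.03 (edgeR adjusted p = 5.28e-08 and 4.06e-08). Atp5b, the catalytic beta subunit named for this contrast after its values were seen, averaged 1417 ± 7 CPM in M and 1425 ± 51 CPM in ET, against 1459 ± 34 CPM in Normal, and did not pass (edgeR adjusted p = 0.247 and 0.355), though with total-count scaling it did, at -0.14 and -0.11 (edgeR adjusted p = 0.00147 and 0.00502). Atp5md, a small subunit that helps synthase dimers form, rose by 0.27 ± 0.08 in M and by 0.24 ± 0.08 in ET (edgeR adjusted p = 0.00785 and 0.0147). The rise of Atp5md in ET was lost without ET replicate 1 or Normal replicate 2 (edgeR adjusted p = 0.0652 and 0.0642), and with total-count scaling neither rise held (edgeR adjusted p = 0.0557 in M and 0.0762 in ET). Atp5pb, the stator b subunit, rose in ET by 0.12 ± 0.04 (edgeR adjusted p = 0.0122), but not with total-count scaling (0.04). Its value of 0.08 in M passed only without M replicate 2 (edgeR adjusted p = 0.0453).

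Of the 13 mitochondrially encoded genes, 11 fell and none rose in each comparison by edgeR, and none was higher by DESeq2 or at an unadjusted p under 0.05. That is 84.6% lower, beside the 34.5% and 35.2% of all tested genes given above, with a median of -0.30 in M and -0.35 in ET. These genes are transcribed as long precursors from both strands of the circular genome, cut apart at the transfer RNAs between them and given short poly(A) tails, except mt-Nd6, which lies alone on the other strand. The libraries were made from RNA caught by oligo(dT), and counts of the overlapping pairs mt-Atp8 with mt-Atp6 and mt-Nd4l with mt-Nd4, and of mt-Nd5 against mt-Nd6, are uncertain because the sources used here do not name the strand setting of the counting.

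The largest falls were those of mt-Nd5, mt-Nd6 and mt-Cytb, which are the last 3 protein genes in map order, a pattern noticed after the values were seen. mt-Cytb, the haem-bearing cytochrome b of complex III, had 3177, 3045 and 3104 CPM in M and 3124, 2728 and 3405 CPM in ET, against 4667, 5039 and 4474 CPM in Normal. mt-Nd5, a proton-pumping subunit of complex I, had 2170, 2026 and 2453 CPM in M and 2245, 2057 and 1991 CPM in ET, against 3245, 3207 and 3249 CPM in Normal. Every M and ET library of both genes lay under every Normal library. The changes were -0.60 ± 0.07 and -0.62 ± 0.07 for mt-Cytb and -0.55 ± 0.06 and -0.62 ± 0.06 for mt-Nd5 (edgeR adjusted p of 3.74e-06 or less), and mt-Nd6 fell by 0.59 ± 0.06 and 0.63 ± 0.06 (edgeR adjusted p = 3.45e-06 and 2.02e-06). Counts of the 3 genes over those of the other 10 were 0.179, 0.187 and 0.204 in M and 0.192, 0.188 and 0.194 in ET, against 0.246, 0.264 and 0.253 in Normal.

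**Figure D4:**
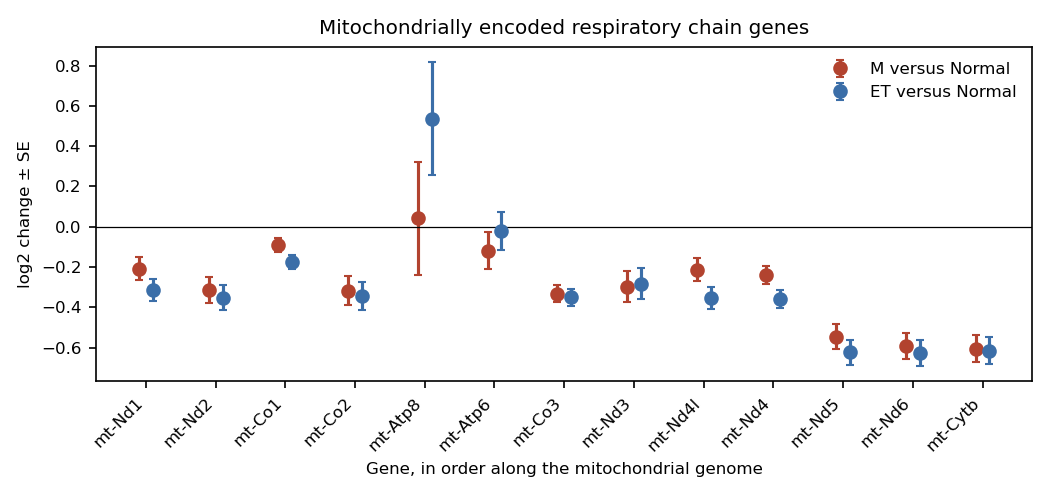
log2 change against Normal with its standard error for each mitochondrially encoded gene, in order along the mitochondrial genome, for M and ET. mt-Nd5, mt-Nd6 and mt-Cytb at the right lie between -0.55 and -0.63, and mt-Atp8 has the widest error.

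mt-Co1, the catalytic subunit of complex IV and the most abundant of the 13 both by count and per length, changed least among those that fell. It had 17029, 16167 and 15945 CPM in M and 15890, 14785 and 15697 CPM in ET, against 17888, 17578 and 16869 CPM in Normal. ET did not overlap Normal (-0.17 ± 0.03, edgeR adjusted p = 0.000458), whereas M did (-0.09 ± 0.03, edgeR adjusted p = 0.0276). The call in M was lost without M replicate 2 or 3 or Normal replicate 1 or 2 (edgeR adjusted p = 0.0829 to 0.152), and with DESeq2 on all 9 libraries (adjusted p = 0.0515, Benjamini-Hochberg). The other complex IV genes fell further, mt-Co2 by 0.32 ± 0.07 in M and 0.34 ± 0.07 in ET and mt-Co3 by 0.33 ± 0.04 and 0.35 ± 0.04.

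The remaining complex I genes of the mitochondrial genome, mt-Nd1, mt-Nd2, mt-Nd3, mt-Nd4 and mt-Nd4l, fell by 0.21 to 0.31 in M and by 0.28 to 0.36 in ET, with edgeR adjusted p of 0.00504 or less. mt-Nd3 was the lowest of the 13 per length, at 178.6 ± 9.0 FPKM in M and 181.9 ± 20.3 FPKM in ET, against 233.3 ± 15.5 FPKM in Normal, where mt-Co1 stood at 10957 FPKM.

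The mitochondrially encoded genes of ATP synthase, mt-Atp6 and mt-Atp8, did not pass. mt-Atp6 had 2683, 1987 and 2188 CPM in M and 2505, 2253 and 2585 CPM in ET, against 2676, 2297 and 2477 CPM in Normal, and the groups overlapped (edgeR adjusted p = 0.266 and 0.851). Without M replicate 1, mt-Atp6 in M passed at -0.25 (edgeR adjusted p = 0.0088), as it did with total-count scaling (edgeR adjusted p = 0.0491). mt-Atp8 varied most, with 798.8, 286.3 and 433.4 CPM in M and 743.1, 664.6 and 729.1 CPM in ET, against 583.3, 355.1 and 536.4 CPM in Normal. ET lay above Normal, with a difference of 0.54 ± 0.28 (edgeR adjusted p = 0.107) that passed without M replicate 1 or 2 (edgeR adjusted p = 0.0167 and 0.0369). All 9 libraries share 1 estimate of spread. Without M replicate 1, mt-Atp8 was also lower in M than in ET, by 0.98 (edgeR adjusted p = 0.0179).

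Between M and ET few members differed. None of the 82 nuclear members was higher in M (4.97% of all tested genes were) and 3 were lower (3.66%, beside 4.12% of all tested genes), so the share of lower calls was near the background. DESeq2 called 2 nuclear members higher and 5 lower in M, beside 895 higher and 787 lower of all 11536 tested genes. At an unadjusted p under 0.05, 2 nuclear members were higher and 12 lower. No share of all tested genes was taken at that unadjusted threshold. None of the 13 mitochondrial genes was called in either direction by edgeR or DESeq2, while 3 were higher in M and none lower at an unadjusted p under 0.05. Uqcrq was lower in M by 0.19 ± 0.05 (edgeR adjusted p = 0.0345) and Uqcrh, the acidic hinge subunit, by 0.13 ± 0.04 (edgeR adjusted p = 0.0473). Uqcrh had 90.4, 92.9 and 91.6 CPM in M and 100.8, 97.8 and 101.9 CPM in ET, which did not overlap, and 110.6, 108.5 and 105.4 CPM in Normal. Its call was lost on leaving out any one of the 9 libraries (edgeR adjusted p = 0.0509 to 0.132), and that of Uqcrq without M replicate 1 or 3 or ET replicate 1 or 2 (edgeR adjusted p = 0.0928 to 0.113). Against Normal, the fall of Uqcrh in ET (edgeR adjusted p = 0.0153) was lost without ET replicate 2 or Normal replicate 1 or 2 (edgeR adjusted p = 0.0568 to 0.0613).

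Ndufa12, an accessory subunit of the entry arm, was lower in M than in ET by 0.54 ± 0.15 (edgeR adjusted p = 0.0488) and lower than in Normal by 0.39 ± 0.15 (edgeR adjusted p = 0.0381). It had 15.3, 9.22 and 14.9 CPM in M and 20.2, 18.8 and 18.2 CPM in ET, and 18.2, 16.2 and 17.3 CPM in Normal, so M replicate 2 was far under the rest. Without that library neither call held (-0.34, edgeR adjusted p = 0.0606, and -0.19, edgeR adjusted p = 0.0949). The call against ET was also lost without M replicate 3, ET replicates 1 and 2 or any Normal library, and that against Normal without Normal replicate 1 or 3 (edgeR adjusted p = 0.0577 to 0.126). A retrocopy row, Ndufa12-ps, had 26.4, 33.2 and 26.7 CPM in M and 32.2, 24.8 and 23.5 CPM in ET, against 30.4, 24.3 and 27.2 CPM in Normal, and was highest in the library where Ndufa12 was lowest. Since reads may be shared between near-identical copies, the split is uncertain, and the sum of both rows was 41.6, 42.4 and 41.7 CPM in M and 52.4, 43.6 and 41.7 CPM in ET, against 48.6, 40.5 and 44.5 CPM in Normal, with the groups overlapping.

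The neighbours of the members in the chain were followed through lists of genes that are not members. All 4 complex II subunits fell in both comparisons (100%), beside 34.5% lower of all tested genes in M and 35.2% in ET. Sdha, the flavoprotein that oxidises succinate, had 239.5, 242.6 and 239.8 CPM in M and 243.2, 243.3 and 242.3 CPM in ET, against 339.4, 348.96 and 342.7 CPM in Normal (changes of -0.51 ± 0.03 and -0.50 ± 0.03, edgeR adjusted p = 8.29e-09 and 1.09e-08), and Sdhb, its iron-sulfur partner, fell by 0.63 ± 0.05 and 0.53 ± 0.05.

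Cytochrome c and its docking partner moved in opposite directions. Cycs, the soluble carrier that also takes part in apoptosis, had 221.5, 225.9 and 215.7 CPM in M and 224.3, 205.3 and 208.9 CPM in ET, against 176.5, 167.7 and 167.9 CPM in Normal, and rose by 0.37 ± 0.04 and 0.32 ± 0.04 (edgeR adjusted p = 4.49e-06 and 1.91e-05). Cyc1, the cytochrome c1 of complex III, fell by 0.32 ± 0.04 and 0.30 ± 0.04 (edgeR adjusted p = 8.11e-06 and 1.45e-05). The ratio of their counts was 1.45, 1.47 and 1.35 in M and 1.47, 1.29 and 1.29 in ET, against 0.880, 0.878 and 0.874 in Normal, with no overlap. Atpif1, the inhibitor of ATP synthase, fell in M by 0.23 ± 0.06 (edgeR adjusted p = 0.00397) and had -0.11 in ET (edgeR adjusted p = 0.126), where it passed without ET replicate 1 (edgeR adjusted p = 0.00318).

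Of 26 tested assembly factors of complexes III and IV and of ATP synthase, 11 rose and 8 fell in M (42.3% and 30.8%), and 10 rose and 5 fell in ET (38.5% and 19.2%). Beside the 35.5% higher and 34.5% lower of all tested genes in M, and 35.0% and 35.2% in ET, the shares in M and the rises in ET were near the background. The examples that follow were chosen after their values were seen. Cox17, which hands copper to the complex IV assembly line, had 38.0, 39.8 and 38.2 CPM in M and 38.5, 36.6 and 39.2 CPM in ET, against 15.6, 17.2 and 16.5 CPM in Normal, and rose by 1.24 ± 0.06 and 1.21 ± 0.06 (edgeR adjusted p = 1.79e-09 and 2.14e-09). Sco2, which passes copper on to the Co2 subunit, had 16.5, 15.4 and 17.3 CPM in M and 20.97, 21.8 and 19.6 CPM in ET, against 7.85, 8.03 and 9.34 CPM in Normal. It rose in both and was lower in M than in ET by 0.34 ± 0.09 (edgeR adjusted p = 0.0409), a difference that did not hold without any one M library or without ET replicate 1 or 2 (edgeR adjusted p = 0.0675 to 0.141). Bcs1l, which inserts the Rieske protein into complex III, fell by 0.85 ± 0.08 and 0.77 ± 0.08 (edgeR adjusted p = 1e-06 and 2.36e-06).

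**Figure D5:**
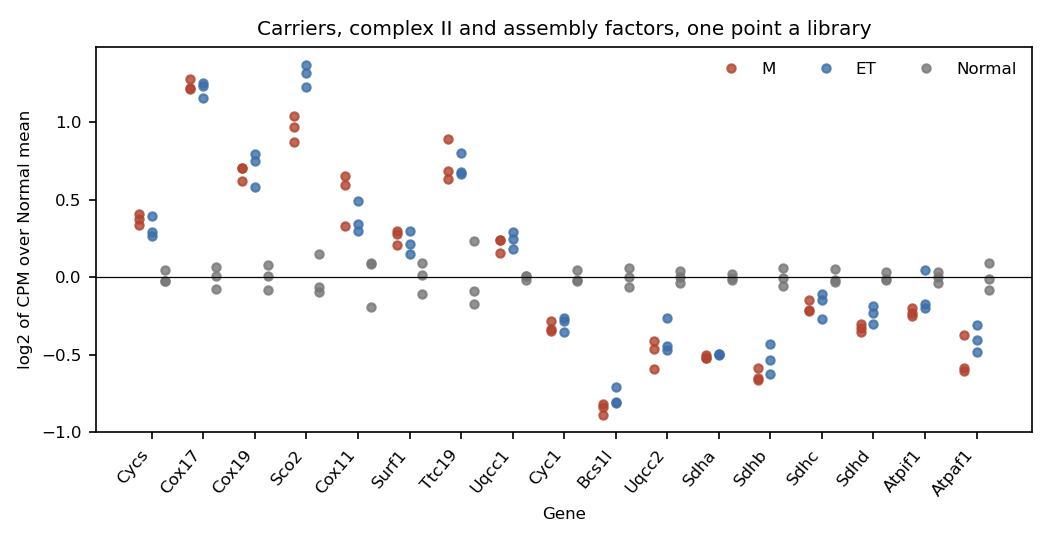
log2 of each library's CPM over the Normal mean for 17 genes outside the name rule (carriers, assembly factors, complex II and the ATP synthase inhibitor), with one point a library in M, ET and Normal. Cycs and the copper factors Cox17, Cox19 and Sco2 lie above Normal in all 6 treated libraries, and Bcs1l, Cyc1, Sdha and Sdhb lie under it in all 6.

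Of 18 genes for transcription and upkeep of mitochondrial DNA and RNA, 2 rose and 9 fell in M (11.1% and 50.0%), and 1 rose and 8 fell in ET (5.56% and 44.4%), beside 35.5% higher and 34.5% lower of all tested genes in M and 35.0% and 35.2% in ET. The examples were again picked by value. Tfam, which packs mitochondrial DNA and starts its transcription, averaged 57.3 CPM in M and 52.9 CPM in ET, against 70.7 CPM in Normal (changes of -0.30 and -0.42, edgeR adjusted p = 0.000143 and 8.39e-06). Polrmt, the mitochondrial RNA polymerase, fell by 0.49 ± 0.07 and 0.35 ± 0.07, and Pnpt1, a subunit of the mitochondrial RNA degradosome, rose by 0.49 ± 0.07 and 0.28 ± 0.07.

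Among 10 tested regulators of nuclear respiratory genes, 3 rose and 7 fell in M (30% and 70%), and 3 rose and 6 fell in ET (30% and 60%). Of all tested genes 35.5% rose and 34.5% fell in M and 35.0% and 35.2% in ET, so the rises were near the background. The largest change among the 10 was a rise, of 5.58 in M and 5.74 in ET, while the median of the 10 was -0.23 and -0.26. That gene is not named and its level is not given here, so the size of its rise stands for no other gene. In M against ET 2 were higher and 2 lower (20% each, beside 4.97% and 4.12% of all tested genes). Nrf1, Gabpa and Yy1, the factors whose letters were searched in the promoters, were named here after their values were seen. They fell by 0.36, 0.21 and 0.22 in M and by 0.35, 0.39 and 0.25 in ET (largest edgeR adjusted p, 0.00315). Ppargc1a, which encodes the coactivator PGC-1 alpha, was at 0 counts in 8 of the libraries. The 20 members with NRF1 letters in their window had a median change of -0.27 in M and -0.18 in ET, and the 49 tested members without them -0.11 and -0.08. For the ETS letters the medians were -0.24 in M and -0.11 in ET (5 genes with them), against -0.20 and -0.13 (64 without). For the YY1 letters they were -0.15 and -0.11 (8 genes with them), against -0.21 and -0.12 (61 without), so the order differed between the motifs. These medians are descriptions, and nothing about binding was measured.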

How the data were processed

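RNA of 9 RAW264.7 libraries was measured by oligo(dT) RNA-seq. The authors' table holds raw read counts and FPKM values per gene, per the file headers, and the FPKM values had been scaled by library total and gene length before they were deposited. The submitters' processing notes name cutadapt 1.9, HISAT2 2.2.1, StringTie 2.1.6, DESeq2 and edgeR, with no role given. The genome build and counting tool are not named in the sources used here, and gene coordinates of 90.1% of rows equal those of GENCODE M21 (GRCm38).

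Counts were tested with edgeR 4.0.16 in R 4.3.3 (TMM factors, quasi-likelihood fit of 3 groups over 9 libraries) for genes that reached an FPKM of 1 in 3 or more libraries, with Benjamini-Hochberg adjustment over all of them. Alternatives used DESeq2 1.42.0, limma 3.58.1 on log2(FPKM + 1) and log2(FPKM + 0.1), other scalings, filters and designs, and each library left out in turn. The test was also run on simulated counts with 200 changed genes, as many higher as lower. Far more genes were called in these data, so that run cannot judge the scaling used here. Groups follow the table's columns.

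Named genes are the 13 mitochondrial ones, the 2 members with the smallest adjusted p per complex, comparison with Normal and direction, all members called between M and ET, isoform families, complex II, cytochromes c and c1, Atpif1 and AA467197. Most others are marked in the text as chosen after their values were seen. The members and gene lists were chosen with earlier results of these data known. Promoter sequences are from RefSeq.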

Additional observations from a re-analysis of the deposited data

How the results depend on the processing

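Over the alternatives, 1240 of 1300 single-gene values in M against Normal, 1255 of 1300 in ET against Normal and 1241 of 1300 in M against ET stayed on their side of the threshold, and no called value changed sign. These values cover the named genes only, many of them named for a small adjusted p, so they do not stand for all members. The falls of the mitochondrial and nuclear members in both comparisons with Normal kept their counts within 1.5 times. The cause of the changes that follow was not tested.

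In M against Normal, 7 nuclear members rose, against 3 with total counts, 4 with limma at either pseudocount, 4 at an adjusted p of 0.01, and 4 (without Normal replicate 2) to 7 with a library left out. Of all 11536 tested genes, 4101 rose, against 3455 with total counts, 3467 and 3466 with limma and 3582 at an adjusted p of 0.01. With a library left out, 3901 to 4211 of them rose. The median of the nuclear members also depended on the scaling. Their median log2 change of -0.21 was -0.31 with total counts and -0.29 and -0.30 with limma on log2(FPKM + 1) and log2(FPKM + 0.1). The median of the mitochondrial members was -0.39 with total counts, -0.38 with limma at either pseudocount, and -0.39 to -0.25 with a library left out.

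In ET against Normal, the count of mitochondrial members that rose was 0, against 1 (mt-Atp8) when only the 6 libraries compared were fitted, and 0 to 1 with a library left out (1 without M replicate 1 or 2). Of all tested genes, 4037 rose, against 3961 in that fit and 3865 to 4054 with a library left out. In M against ET, the count of nuclear members higher in M was 2 with DESeq2, 1 in the fit of 6 libraries and 0 to 1 with a library left out. The count lower in M was 5 with DESeq2, 0 with no filter, 1 with filterByExpr, 1 in the fit of 6 libraries, 0 at an adjusted p of 0.01 and 0 to 4 with a library left out. Of all tested genes, 475 were lower in M, against 787 with DESeq2, 419 in the fit of 6 libraries and 171 at an adjusted p of 0.01. The range was 244 to 707 with a library left out. It was 270 with no filter (26146 genes) and 406 with filterByExpr (16074 genes). Mitochondrial members lower in M numbered 0 to 1 (1 without M replicate 1).

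Per protein-coding counts, the mitochondrial share averaged 3.694% in M and 4.651% in Normal, and the nuclear share 0.832% in M, 0.8584% in ET and 1.02% in Normal. Leaving out 1 library from the shares, a check added after the data were seen, moved no mean by as much as its group's SD. In groups this small, leaving out 1 library cannot move a mean that far, so the check could not fail and decides nothing.

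The same-numbered libraries deviated from their group means with correlations of -0.052 to 0.081, so the numbers were not taken as pairs. With the replicate block, 1 mitochondrial member rose in ET and 1 nuclear member was lower in M than in ET, and 6 nuclear members rose and 43 fell in M against Normal. Of all 11536 tested genes, 4011 rose in ET with the block and 414 were lower in M than in ET. In M against Normal 4068 rose and 3937 fell. Precision is limited by 3 libraries a group, by low counts of the isoforms under the filter, and by the uncertain assignment of M and ET.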
